A study of Homo sapiens with 23 samples.

Results

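Hub bins, stretches of 5 kb joined by listed chromatin loops to 5 or more other bins, were taken from 2 loop lists made by progesterone receptor HiChIP in T47D cells. For every bin of each list the distinct bins joined to it on the same chromosome, called its partners, were counted, and a bin was kept as a hub when it had at least 5 partners in either list. This gave 507 hub bins among the 20481 bins that held an end of a listed loop in either library. The library labelled T30 had 302 hubs among 13649 listed bins (2.21%), and the library labelled T0 had 242 among 9909 (2.44%). With the lists brought to equal length the numbers were 213 in T30 and 242 in T0. With at least 8 partners required they were 79 and 41, so the order of the libraries depended on the setting. At the same bin, 37 hubs reached the threshold in both. The members were thus selected on the partner counts of both libraries, and all partner counts below are a description of that selection.

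T47D cells are an established line from a human breast cancer and carry the progesterone receptor. The T30 library carries PR5020 in its title, read here as the receptor and R5020, the synthetic progestin that the treatment protocol names; neither the dose nor the unit of the number 30 is given in the labels for it. The T0 library is labelled for the receptor alone with the number 0, and both came from cells kept without serum before treatment, per the labels. Each condition was 1 library, so every difference below is a difference between these libraries, with no replicate check and no test. The T30 list held 9591 loops with 135538 contacts and the T0 list 7075 loops with 127457 contacts. A contact is a read pair that joins both bins, the totals cover listed loops alone, and the depth of either library is unknown. Of the 23 samples in the series, only these libraries were used.

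The progesterone receptor is a hormone-activated transcription factor that binds DNA, often at enhancers far from gene starts, and R5020 activates it. HiChIP ligates neighbouring DNA ends inside the nucleus and then enriches the ligated fragments with an antibody. A bin can therefore gain listed partners through more contact or through more receptor at the site, which cannot be told apart here. Bins with many partners are commonly described as hubs, where several enhancers and promoters meet or where a long stretch of chromatin folds onto itself.

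The promoters of 6 genes whose start lies in a hub bin are printed because they show the kinds of hub that the results turn on: hubs of T30 alone (KRT37, a hair keratin, and FKBP5, a co-chaperone of steroid receptors), hubs of both libraries (FAM43A, whose role is little known, and BHLHE40, a transcriptional repressor of the circadian clock) and hubs of T0 alone (IGFBP3, a carrier of insulin-like growth factors, and NME1, a nucleoside diphosphate kinase). They were picked after the values had been seen. Each runs 5′ to 3′ along the gene's strand, from 250 bases before the start to 50 bases after it, as RefSeq gives it for GRCh38.p14. Capitals mark matches on either strand to TGTTCT, the steroid receptor half-site, or to TGANTCA, the AP-1 element.
KRT37 (chr17:41424536-41424835, minus strand): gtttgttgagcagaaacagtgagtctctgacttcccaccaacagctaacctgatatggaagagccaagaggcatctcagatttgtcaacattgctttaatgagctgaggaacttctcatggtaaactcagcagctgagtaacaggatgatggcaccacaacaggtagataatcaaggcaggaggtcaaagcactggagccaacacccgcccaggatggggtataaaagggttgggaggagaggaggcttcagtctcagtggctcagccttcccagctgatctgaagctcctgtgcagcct
FKBP5 (chr6:35728534-35728833, minus strand): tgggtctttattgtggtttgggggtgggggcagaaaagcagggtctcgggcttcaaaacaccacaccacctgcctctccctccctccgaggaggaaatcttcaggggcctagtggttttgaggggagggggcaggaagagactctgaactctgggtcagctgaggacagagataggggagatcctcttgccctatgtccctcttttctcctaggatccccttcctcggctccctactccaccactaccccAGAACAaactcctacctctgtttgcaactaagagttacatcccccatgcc
FAM43A (chr3:194685633-194685932, plus strand): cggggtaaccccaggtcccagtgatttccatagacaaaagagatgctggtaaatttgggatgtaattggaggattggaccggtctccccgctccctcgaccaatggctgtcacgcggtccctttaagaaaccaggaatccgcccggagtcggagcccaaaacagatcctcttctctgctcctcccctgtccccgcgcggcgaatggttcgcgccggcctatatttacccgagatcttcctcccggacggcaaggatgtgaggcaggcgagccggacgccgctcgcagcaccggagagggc
BHLHE40 (chr3:4979187-4979486, plus strand): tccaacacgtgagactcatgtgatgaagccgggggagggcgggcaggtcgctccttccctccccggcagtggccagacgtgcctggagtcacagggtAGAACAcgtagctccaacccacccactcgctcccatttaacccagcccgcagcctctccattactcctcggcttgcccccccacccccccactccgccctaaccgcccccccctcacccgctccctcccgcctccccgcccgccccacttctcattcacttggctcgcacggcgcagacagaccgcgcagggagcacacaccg
IGFBP3 (chr7:45921223-45921522, minus strand): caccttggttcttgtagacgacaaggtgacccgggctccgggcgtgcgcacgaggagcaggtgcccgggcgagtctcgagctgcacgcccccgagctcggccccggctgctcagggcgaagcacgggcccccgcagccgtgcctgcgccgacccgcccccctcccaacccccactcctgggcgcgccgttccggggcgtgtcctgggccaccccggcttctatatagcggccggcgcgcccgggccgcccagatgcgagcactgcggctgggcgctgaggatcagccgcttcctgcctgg
NME1 (chr17:51153309-51153608, plus strand): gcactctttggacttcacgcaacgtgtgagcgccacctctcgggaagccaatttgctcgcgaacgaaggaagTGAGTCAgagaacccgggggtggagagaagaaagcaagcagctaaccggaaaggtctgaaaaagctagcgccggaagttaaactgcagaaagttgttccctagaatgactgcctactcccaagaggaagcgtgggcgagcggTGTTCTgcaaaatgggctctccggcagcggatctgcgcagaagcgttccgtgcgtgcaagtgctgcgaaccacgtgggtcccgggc

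In these windows the FKBP5 promoter held 1 half-site match, which begins at position 251 and so at the start of the gene. BHLHE40 held 1 at position 98, and NME1 held 1 at position 215 together with 1 AP-1 match at position 73. KRT37, FAM43A and IGFBP3 held no match to any of the motifs searched. The promoter table held 85 entries of protein-coding genes in 69 hub bins, and entries of different genes with the same window, such as NME1 and NME1-NME2, were counted once. The half-site was in 3 of 57 windows at T30 hubs (5.26%) and 3 of 37 at T0 hubs (8.11%), against 2588 of all 22012 windows (11.8%). The AP-1 letters were in 1 at T30 hubs (1.75%) and 1 at T0 hubs (2.7%), against 6.16% of all windows. TGTTTAC, the forkhead element, was in 2 at T30 hubs (3.51%) and 0 at T0 hubs, against 2.86%. The full palindromic element GNACANNNTGTNC was in none of the 83 windows at hubs and in 0.291% of all. The median GC content was 69.7% at T30 hubs and 67.5% at T0 hubs, against 62.3% over all entries. A gene may have several entries, one for each start, and all 4 motifs were searched on both strands. No share at hubs rested on more than 3 windows, too few to set them apart from the rest. The rest of each hub bin was not searched.

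Hubs sat close to the threshold. The median hub had 6 partners in T30 and 5 in T0, and the highest had 24 in T30 and 21 in T0. Just inside the threshold, 123 bins of T30 and 122 of T0 had exactly 5 partners, and just outside it 220 of T30 and 228 of T0 had 4. With 1 added to each count, 220 of the 507 hubs (43.4%) had at least 3-fold more partners in T30 than in T0, and 139 (27.4%) at least 3-fold fewer. Among all 20481 listed bins those shares were 9.63% and 5.53%. Since the rule chose hubs by these counts, the larger shares follow from the choice.

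**Figure D1:**
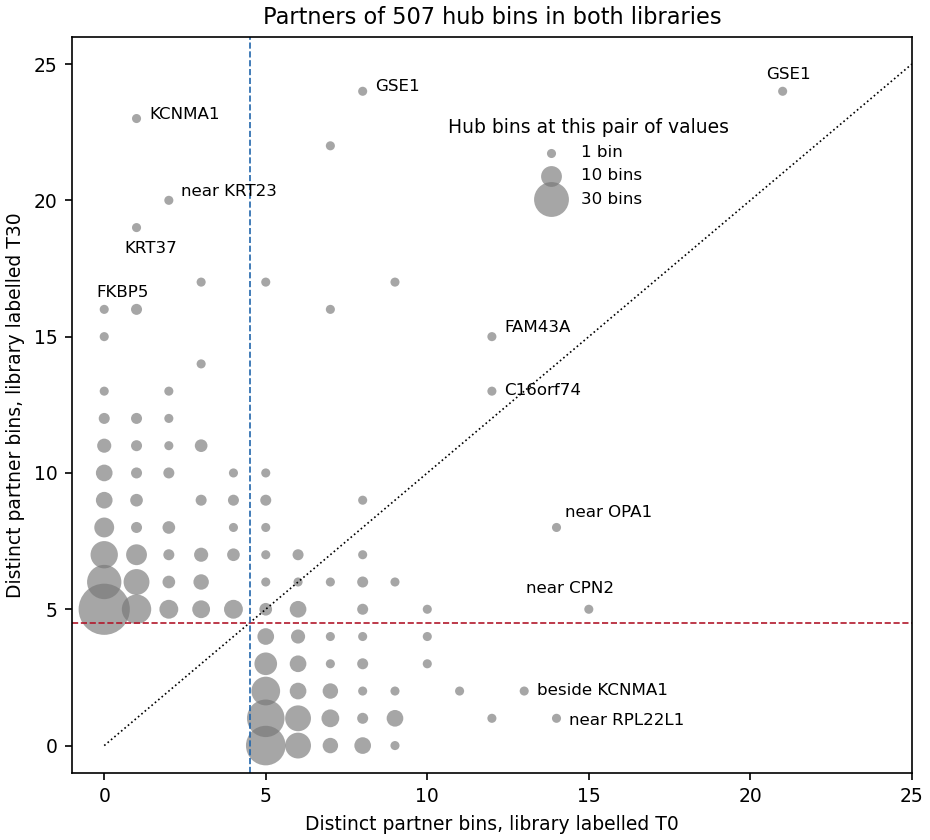
Distinct partner bins of each of the 507 hub bins in T30 (vertical axis) and T0 (horizontal axis); the area of a point grows with the number of hubs at that pair of values, dashed lines mark the threshold of 5 and the dotted line marks equal counts. Most hubs lie along the axes below 10 partners, while a GSE1 bin stands alone at 24 partners in T30 and 21 in T0.

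The hubs with the most partners in T30 lay in or near a few genes. Bins are named below by their first base in the deposited coordinates (hg38). In KCNMA1, which encodes a calcium-activated potassium channel, the bin at 77430001 on chromosome 10 had 23 partners in T30 and 1 in T0. Its T30 partners lay on both sides, 12 lower and 11 higher in coordinate, from 20 to 280 kb away, with 477 contacts in all. Its T0 partner lay 205 kb higher, with 14 contacts. KCNMA1 held 3 further T30 hubs, of 6, 10 and 5 partners, and no T0 hub. The nearest T0 hub stood just outside the gene, 2193 bp away at 77640001, where T0 listed 13 partners and T30 listed 2. All 13 lay on the lower side, towards the gene, from 145 to 520 kb away.

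On chromosome 17 a pair of T30 hubs lay in the region of the type I keratin genes. The bin at 40910001, 7.7 kb from KRT23, an epithelial keratin, had 20 partners in T30 and 2 in T0. The bin at 41420001, which holds the start of KRT37, had 19 in T30 and 1 in T0. A loop of 510 kb joined both bins in T30, with 44 contacts, the most of any loop at either hub. The first hub reached almost entirely upwards (17 of 20 partners), at a median of 422.5 kb. The KRT37 hub had 9 partners below and 10 above, at a median of 100 kb. The hub at FKBP5 at 35725001 on chromosome 6 held the gene's start. It had 16 partners in T30, 14 of them on the lower side, where the gene lies, and 0 in T0.

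Further strong T30 hubs lay outside genes or within them, with fewer partners in T0. The bin at 112010001 on chromosome 9, 25.8 kb from SUSD1, had 15 partners in T30, and T0 listed none within 2 bins. The bin at 2860001 on chromosome 7, 15.7 kb from GNA12, which encodes a G protein subunit, had 16 in T30 and 1 in T0. At 116390001 on chromosome 12, 112308 bp from MED13L, a subunit of the Mediator kinase module, T30 listed 17 partners and T0 listed 5, so that this bin was a hub in both. In MED13L itself, at the start of the gene, another hub had 8 partners in T30 and 2 in T0. On chromosome 8, a bin in NDUFAF6, an assembly factor of mitochondrial complex I, had 17 in T30 and 3 in T0, with 313 and 76 contacts. Thus the T30 hubs of this rank were not all at gene starts: of those just named, the KRT37, FKBP5 and MED13L bins held one. The NDUFAF6 bin was not assessed, because chromosome 8 was not used for starts.

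The hubs with the most partners in T0 were mostly on chromosome 3 and mostly pointed one way. The bin at 194315001, 19.8 kb from CPN2, a subunit of a plasma carboxypeptidase, had 5 partners in T30 and 15 in T0. All of them lay on the lower side in both libraries, at a median of 145 kb in T30 and 535 kb in T0. The bin at 193780001, 82.2 kb from OPA1, which encodes a GTPase of mitochondrial fusion, had 8 in T30 and 14 in T0, and 8 and 13 of these lay on the higher side. In T0 a loop of 535 kb with 39 contacts joined these bins to each other, the strongest loop of both hubs. T30 listed no loop between exactly these bins, but the bin at 193780001 had a T30 partner 525 kb away and the bin at 194315001 one 520 kb away. The strongest T30 loop of the bin at 193780001 led to the HES1 bin, 355 kb away, with 29 contacts in T30 and 34 in T0.

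Further T0 hubs had few partners in T30. The bin at 170810001 on chromosome 3, 49.9 kb from RPL22L1, a ribosomal protein paralog, had 1 partner in T30 and 14 in T0. The T0 partners lay on its lower side from 120 to 620 kb away, and the T30 partner was the one at 400 kb, with 12 contacts in T30 and 33 in T0. The bin at 191415001, 16.3 kb from CCDC50, had 1 in T30 and 12 in T0, at a median of 787.5 kb in T0. In P3H2, a collagen prolyl hydroxylase gene, the bin at 189960001 had 2 in T30 and 11 in T0. The bin with the start of SNRPE, a spliceosome protein gene on chromosome 1, had 3 in T30 and 10 in T0. That of PITPNC1, a phosphatidylinositol transfer protein gene on chromosome 17, had 4 in T30 and 10 in T0. In both bins all partners lay on the higher side in both libraries, the direction in which both genes run, although SNRPE spans only 9.55 kb.

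**Figure D2:**
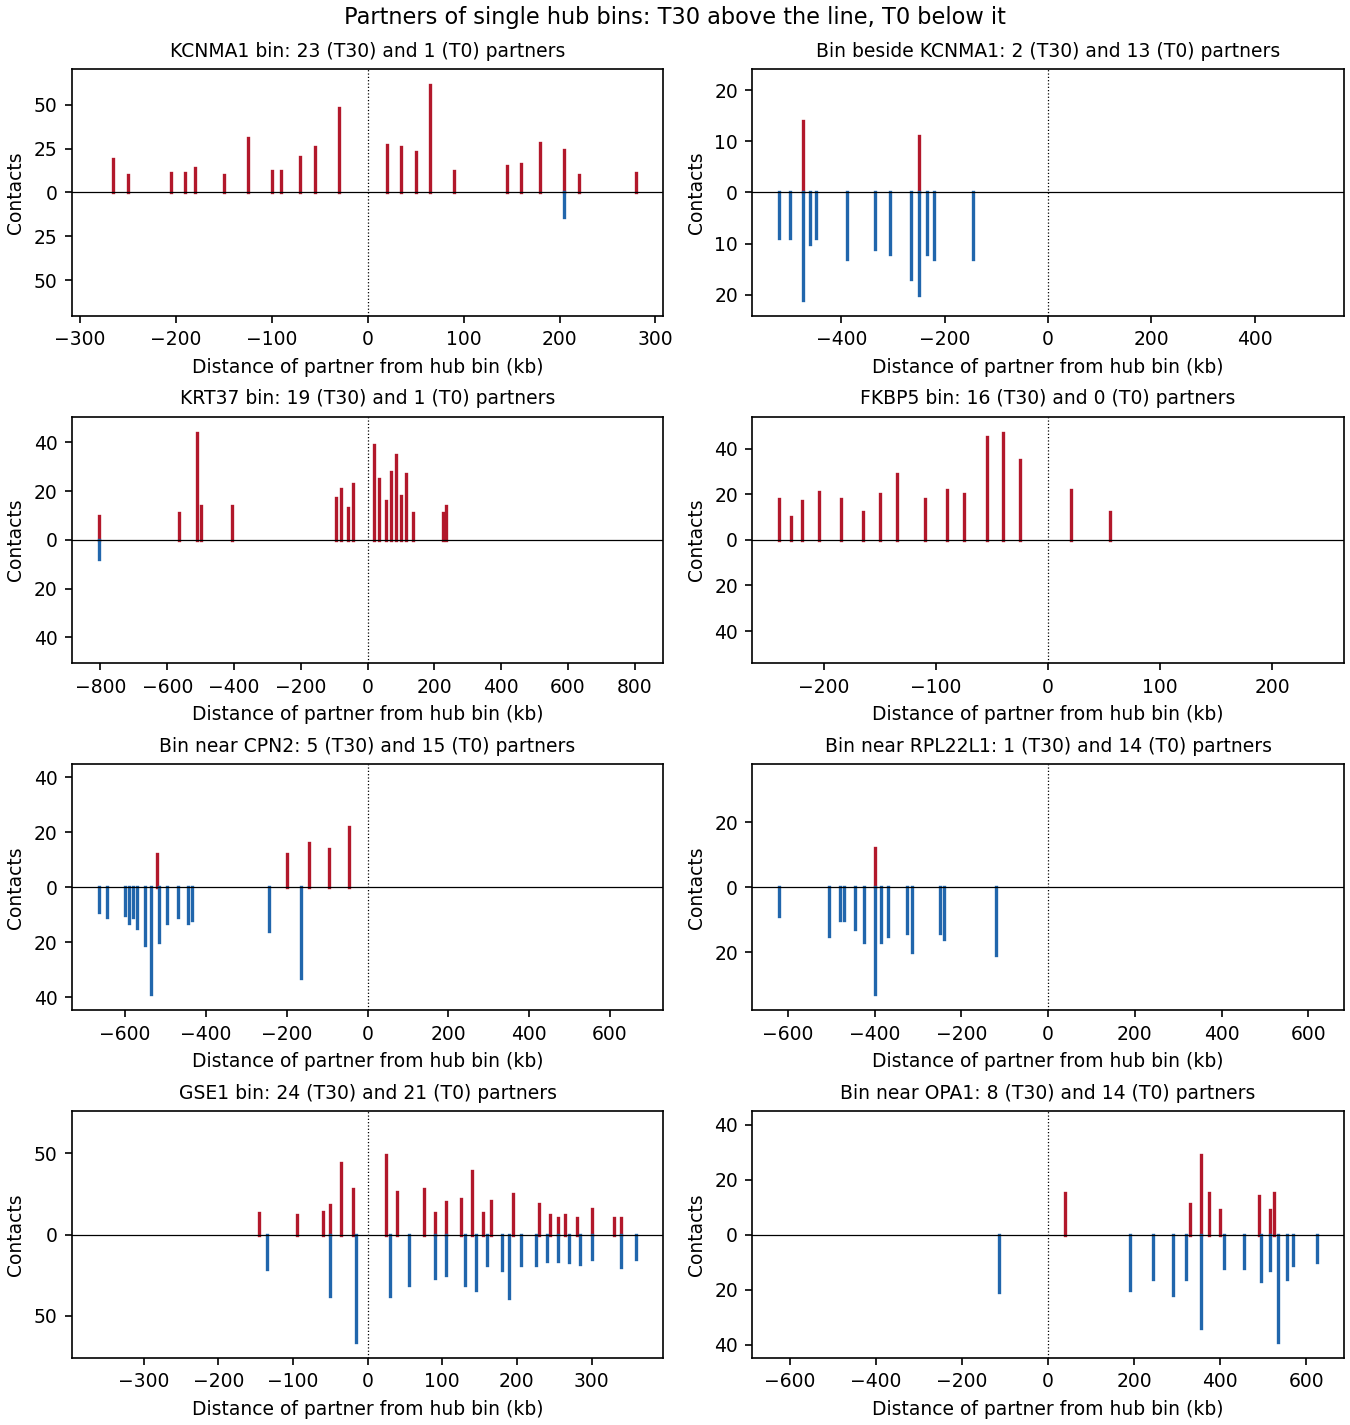
Partners of 8 hub bins: distance of each partner from the hub (horizontal axis, kb, negative towards lower coordinates) and contacts of the loop (vertical axis), T30 above the line and T0 below it. T30 partners of the KCNMA1 and KRT37 bins lie on both sides, while T0 partners of the bins beside KCNMA1, near CPN2 and near RPL22L1 all lie on the lower side; the GSE1 bin has 24 partners in T30 and 21 in T0.

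The 37 hubs found at the same bin in both libraries made up 12.3% of T30 hubs (95% interval 8.77 to 16.5) and 15.3% of T0 hubs (11 to 20.5). These and all later intervals on shares are exact Clopper-Pearson intervals that cover counting error only and treat hubs as independent, although neighbouring hubs share loops. Of the 37, 15 lay on chromosome 3 and 11 in the region of chromosome 16 around GSE1. The GSE1 bin at 85415001 led them with 24 partners in T30 and 21 in T0. GSE1 encodes a protein found with histone deacetylase corepressor complexes. Next by the lower of both counts were the FAM43A bin (15 in T30 and 12 in T0), a C16orf74 bin (13 and 12), and the GSE1 bin at 85350001 (17 and 9). More partners were listed in T30 at 17 of the 37 hubs, fewer at 16 and equal numbers at 4.

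A shared hub did not mean shared partners. Summed hub by hub, the 37 hubs had 330 partners in T30 and 283 in T0, and 71 of these partner bins were identical. A loop between 2 shared hubs was counted at each of them. With a tolerance of 2 bins, 161 T30 partners (48.8%) had a T0 partner beside them and 162 T0 partners (57.2%) a T30 one. No partner bin was identical at 6 of the hubs, and at each of the 37 at least 1 partner was matched within 2 bins. At the GSE1 bin at 85415001, 6 partner bins were identical, while 21 of the 24 T30 partners and 18 of the 21 T0 partners were matched within 2 bins. At FAM43A, 5 were identical and 6 of 15 and 6 of 12 were matched. Its partners all lay on the higher side in both libraries, from 30 to 570 kb in T30 and from 250 to 850 kb in T0. Over the 71 identical pairs of hub and partner the contacts summed to 1348 in T30 and 1665 in T0. These sums also count loops between shared hubs at each end, so they are not sums over 71 distinct loops.

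Genes with the shared hubs included several transcriptional repressors. Both BCL6 hubs, at 187740001 and 187745001 on chromosome 3, had 5 partners in T30; T0 listed 6 at the first and 5 at the second. BCL6 encodes a zinc finger repressor, and the partners of both bins lay above it in both libraries. The bin at the start of HES1, a repressor of the Notch pathway, had 5 in T30 and 6 in T0. That of BHLHE40 also had 5 in T30 and 6 in T0. IRF2BP2, a corepressor gene, had 9 in T30 and 5 in T0 at its start. A shared hub at the start of ABTB2, which is not counted among these repressors, had 6 in T30 and 8 in T0. These genes were picked after the list had been seen, the repressors for their function, so they describe it and do not characterise it.

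Some hubs lay 1 or 2 bins away from a hub of the other library. Of the T30 hubs without a T0 hub in the same bin, 11 had one in the next bin and 13 had one 2 bins away. Of the T0 hubs, 11 had a T30 hub in the next bin and 6 had one 2 bins away. Counting all hubs within 2 bins raised the share found again to 20.2% of T30 hubs (15.8 to 25.2) and 22.3% of T0 hubs (17.2 to 28.1). Within 4 bins it was 24.8% and 24%. Shifts by a bin or 2 therefore left more than 3 in 4 hubs of either library without a hub of the other. The lists overlapped incompletely outside hubs too. Of bins with 1 to 4 partners, 21.9% from T30 and 30% from T0 had any listed partner in the other library in the same bin. Within 2 bins the shares for such bins were 45.4% from T30 and 57% from T0. The low share of hubs found again is therefore not read as a trait of hubs.

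The shifted pairs included some of the largest differences at single bins. At FKBP5, the T0 hub lay 10 kb above the T30 hub, at 35735001 in ARMC12, with 0 partners in T30 and 5 in T0. All 5 lay on the lower side, from 125 to 215 kb away, with 95 contacts, against 366 contacts at the T30 hub. Other examples were picked after the values had been seen, apart from NFKBIA, a gene of the lists below. Near KRT23 the T0 hub lay 5 kb below the T30 hub, with 0 partners in T30 and 8 in T0, so the highest counts within 2 bins were 20 in T30 and 8 in T0. At NFKBIA, which encodes an inhibitor of NF-kappa B, the T30 hub held the gene's start (7 partners in T30 and 3 in T0). The T0 hub was the next bin, 252 bp from the gene (0 in T30 and 5 in T0). A T30 hub in MCCC1, a mitochondrial carboxylase gene, had 12 partners in T30 and 0 in T0, and the next bin, in LAMP3, had 0 in T30 and 6 in T0. At HOXB3, a homeobox gene, the T30 hub had 5 in T30 and 3 in T0 and the next bin 0 in T30 and 6 in T0. At each of these pairs the difference was smaller over the wider window than in the single bin, which largely follows from their choice. A pair was taken only where the other library had a hub in a nearby bin, so the wider window raised that library's count.

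Beyond hubs, a bin with fewer partners often remained. In the same bin the other library listed at least 1 partner for 159 of the 302 T30 hubs (52.6%, 46.9 to 58.4) and for 175 of the 242 T0 hubs (72.3%, 66.2 to 77.9). For bins of 1 to 4 partners the shares were 21.9% from T30 and 30% from T0. Within 2 bins, T0 listed nothing beside 97 T30 hubs (32.1%), and T30 listed nothing beside 29 T0 hubs (12%). A partner was thus listed within 2 bins for 67.9% of T30 hubs and 88% of T0 hubs. For bins of 1 to 4 partners these shares were lower, 45.4% from T30 and 57% from T0, and likewise higher from T0. The most frequent state beside a T0 hub was a T30 bin of 2 to 4 partners, at 100 hubs (41.3%); beside a T30 hub it was no T0 partner at all.

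**Figure D3:**
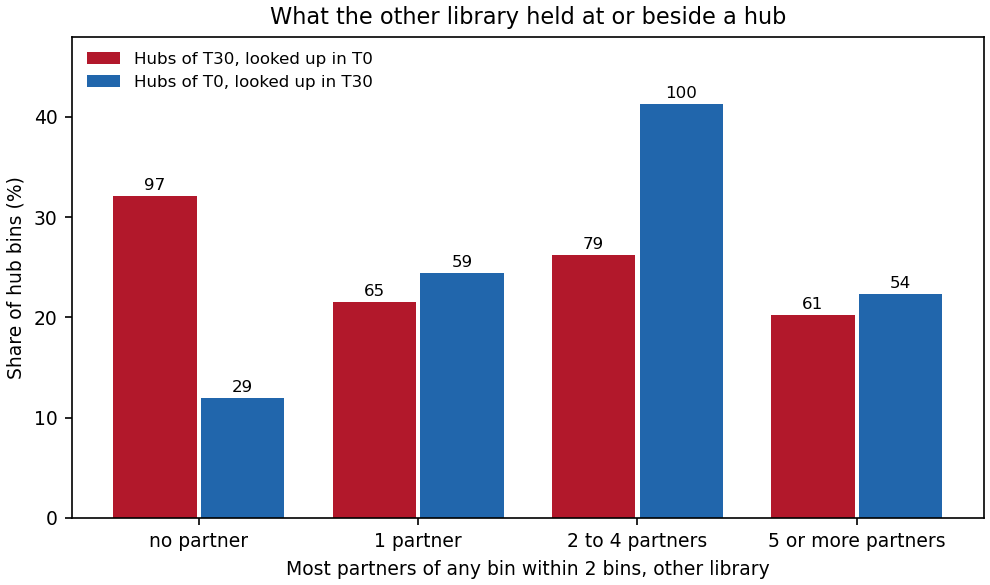
Highest number of partners of any bin within 2 bins of a hub, in the other library, as a share of the hubs of each library (percent); numbers of hubs stand on the bars. T0 listed no partner beside 97 T30 hubs, and T30 listed none beside 29 T0 hubs.

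Among the T30 hubs with no T0 partner within 2 bins were the SUSD1 hub described above and a hub of 10 partners in ZBTB16, which encodes a progestin-responsive zinc finger repressor. The nearest T0 hub to ZBTB16 lay in the neighbouring gene NNMT, with 2 partners in T30 and 7 in T0. Others lay in ANKRD11, a chromatin regulator gene (9 in T30), in VAV2, a signalling adaptor gene (7), in CD44, a hyaluronan receptor gene (6), and in BMPER, which encodes a binding protein of bone morphogenetic proteins (3 hubs of 5 each). T0 hubs with no T30 partner within 2 bins included a bin near VPS41 on chromosome 7 (8 in T0) and bins in the drug efflux gene ABCC1 (7 in T0), in SLC35F3 (6 and 5), in PIK3R1, a regulatory subunit of phosphoinositide 3-kinase (5), and in HDAC9, a histone deacetylase (5). CD44, BMPER, ABCC1, SLC35F3 and PIK3R1 were named after their values had been seen.

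T30 hubs reached less far than T0 hubs. The median distance to a hub's partners, taken for each hub and then over hubs, was 95 kb in T30 (95% interval 90 to 100, quartiles 65 and 145) and 286.2 kb in T0 (265 to 315, quartiles 180 and 413.8). The nearest partner lay at a median of 25 kb in T30 and 147.5 kb in T0, and the farthest at 222.5 kb in T30 and 402.5 kb in T0. A partner under 50 kb away was listed for 244 T30 hubs (80.8%, 75.9 to 85.1) and for 38 T0 hubs (15.7%, 11.4 to 20.9). No partner under 100 kb was listed for 22 T30 hubs (7.28%, 4.62 to 10.8) and for 166 T0 hubs (68.6%, 62.3 to 74.4). A partner 500 kb or more away was listed for 37 T30 hubs (12.3%, 8.77 to 16.5) and 85 T0 hubs (35.1%, 29.1 to 41.5).

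The lists themselves differ in span, and the hubs' share of that difference was not separated. Loops that touched no hub had a median span of 75 kb in T30 and 165 kb in T0, against 95 kb and 295 kb for loops that touched one. Hub loops were thus longer than other loops in either library. Of hub loops, 23.9% in T30 and 1.58% in T0 spanned 20 to 50 kb, and 19.1% in T30 and 49.1% in T0 spanned 200 to 500 kb. T30 listed no loop under 20 kb, and 27 of the T0 hub loops (1.86%) were that short. With loops under 20 kb left out of both libraries, 302 hubs were found in T30 and 227 in T0.

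**Figure D4:**
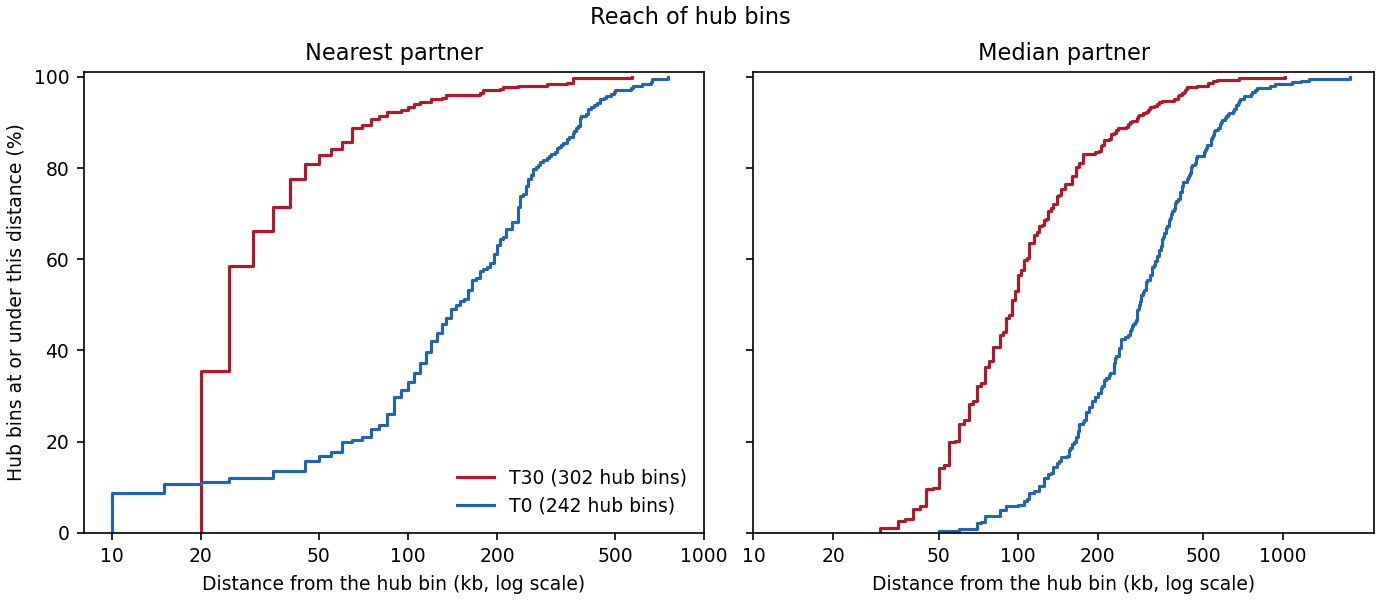
Cumulative share of hub bins (percent) by the distance to their nearest partner (left) and to their median partner (right), on a logarithmic axis in kb, for 302 T30 hubs and 242 T0 hubs. The T30 lines lie to the left of the T0 lines except below 20 kb, where T30 lists no loop; the median nearest partner was 25 kb away in T30 and 147.5 kb in T0.

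Single hubs departed widely from these medians. The T30 hub with the longest reach lay in ABCC11, an efflux transporter gene on chromosome 16, with 6 partners in T30 at a median of 1020 kb and 0 partners in T0. Next was a bin at 25920001 on chromosome 17, whose nearest protein-coding gene, WSB1, lay 1369114 bp away. How reliably reads map in this stretch was not examined. This bin had 5 partners in T30 from 570 to 1735 kb away and 0 in T0. Among T0 hubs, the bin at 43280001 on chromosome 11, 27 kb from API5, an apoptosis inhibitor gene, had 0 partners in T30 and 5 in T0 at a median of 1795 kb. These T0 loops held 42 contacts in all, the lowest sum of any T0 hub. The IGFBP3 bin had 0 in T30 and 7 in T0 at a median of 1165 kb. The BCL6 bin at 187740001 had a median of 295 kb in T30 and 932.5 kb in T0, with the farthest partner 1185 kb away in T30 and 1390 kb in T0. KCNH1, another potassium channel gene, had a hub of 5 partners in T30 and 6 in T0 at its start, at medians of 545 kb and 605 kb, all on the lower side in both libraries.

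T30 hubs spread to both sides, whereas most T0 hubs had all partners on one side. Such single-sided hubs numbered 80 of 302 in T30 (26.5%, 21.6 to 31.8) and 182 of 242 in T0 (75.2%, 69.3 to 80.5). The partners pointed to higher coordinates in 36 of the 80 T30 hubs (45%, 33.8 to 56.5) and in 77 of the 182 T0 hubs (42.3%, 35 to 49.8). In both libraries more of these hubs thus pointed to lower coordinates, which the intervals do not test. In T30 the share was lower the more partners a bin had: 75.3% of bins with 2 partners, 53.2% with 4, 37.4% with 5 and 11.4% with 8 or more. In T0 it was 83.9%, 72.8%, 77.9% and 68.3% at the same numbers of partners. A single-sided hub of 8 or more partners was thus the exception in T30 (9 of 79) and the rule in T0 (28 of 41).

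Part of the contrast in sides moved with the span of the loops. Among hubs whose median partner lay 50 to 100 kb away, 17.7% of 130 in T30 and 21.4% of 14 in T0 were single-sided (11.6 to 25.4, and 4.66 to 50.8). At 100 to 200 kb the shares were 34.8% of 92 in T30 and 72.4% of 58 in T0 (25.1 to 45.4, and 59.1 to 83.3). At 200 to 500 kb they were 50% of 44 and 78.1% of 128 (34.6 to 65.4, and 70 to 84.9). With only loops of 100 kb or more counted in both libraries, 60.9% of 87 hubs in T30 and 83.2% of 191 hubs in T0 were single-sided. At 500 to 2000 kb they were 50% of 6 and 88.1% of 42 (11.8 to 88.2, and 74.4 to 96). These intervals cover counting error only, and hubs that share loops are not independent, so they do not test a difference between the libraries.

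**Figure D5:**
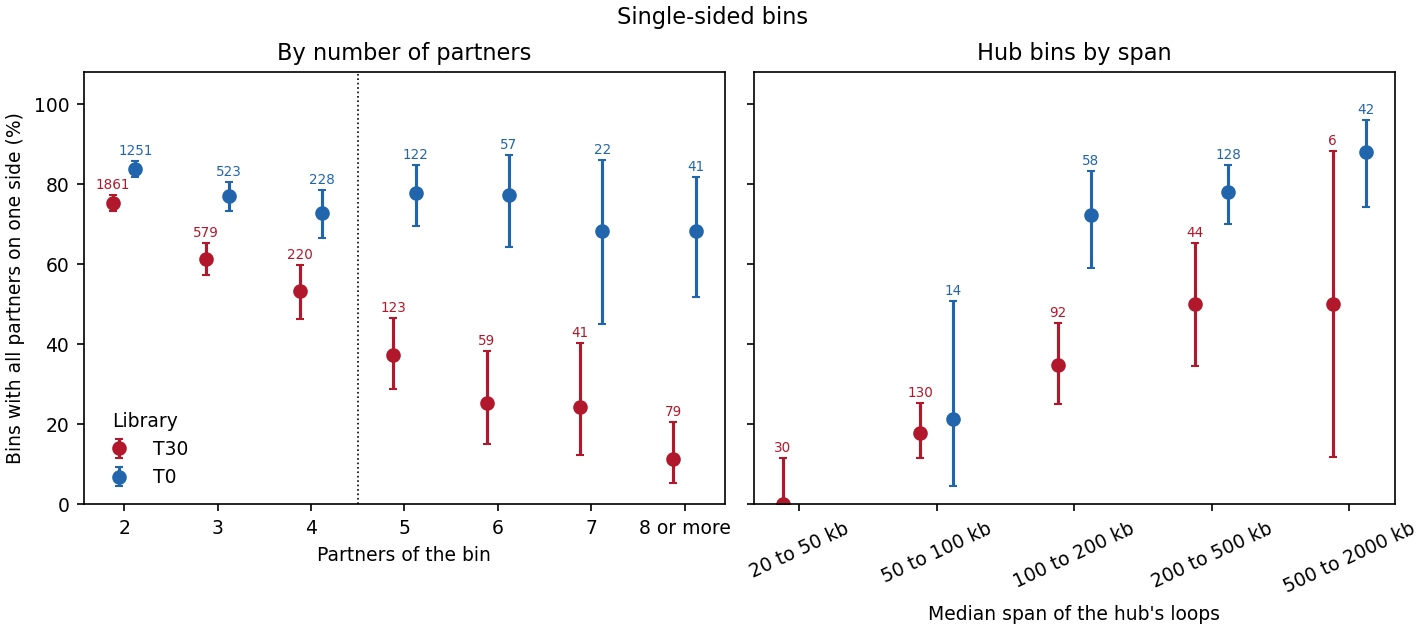
Share of bins whose partners all lie on one side (percent, with exact 95% intervals for counting error), by number of partners (left; the dotted line marks the hub threshold) and, for hubs, by the median span of their loops (right); numbers of bins stand above the points. T30 falls from 75.3% at 2 partners to 11.4% at 8 or more, while T0 lies between 68.2% and 83.9% throughout.

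Single-sided hubs were also compared with the direction of the gene whose start they held. Hubs with gene starts on both strands, such as the FAM43A bin, were left out, and chromosome 8 was not used. Among the rest, the partners lay on the side of the gene body for 15 in T30 and 15 in T0. They lay on the other side for 6 in T30 and 10 in T0. NFKBIA, ABTB2 and VAV2 were examples in T30, with 7, 6 and 5 partners. The IGFBP3 bin went the other way: its 7 T0 partners lay above the gene, which extends downwards.

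Hub loops carried slightly more contacts than other loops of the same span. At 20 to 50 kb the median was 21 contacts at hubs and 16 elsewhere in T30, and 36 and 25 in T0. At 100 to 200 kb it was 12 and 11 in T30, and 18 and 15 in T0. The exception was the class of 1000 to 2000 kb in T30, with 6 hub loops at a median of 8.5 contacts and 26 other loops at 9. Without regard to span, hub loops had a median of 14 contacts in either library, and other loops 12 in T30 and 14 in T0. Contacts given for both libraries side by side are raw counts that were not scaled to each other.

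Summed over its loops, the median hub held 97 contacts in T30 (92 to 104) and 94 in T0 (87 to 103). Its strongest loop held 25 contacts in T30 and 24 in T0, or 25% and 26.5% of the sum. No single loop therefore dominated a typical hub. The sums ran highest at GSE1. Its bin at 85380001 held 641 contacts in T30 and 123 in T0, the bin at 85555001 held 537 and 261, and that at 85415001 held 484 and 546. The C16orf74 hub held 285 in T30 and 442 in T0. KCNMA1 held 477 in T30 at its first hub and KRT37 held 391, against 14 and 8 in T0.

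Hubs met other hubs more often in T30. A loop to another hub was listed for 158 of the 302 T30 hubs (52.3%, 46.5 to 58.1) and for 56 of the 242 T0 hubs (23.1%, 18 to 29). Both ends were hubs for 240 of the 1916 T30 hub loops (12.5%) and for 50 of the 1452 T0 hub loops (3.44%). Hub loops in turn made up 20% of all T30 loops and 20.5% of all T0 loops, and 23.5% of listed contacts in T30 and 19.5% in T0. When hubs joined by loops were grouped, T30 had 144 lone hubs and 40 groups, and T0 had 186 lone hubs and 20 groups.

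The largest group of either library lay around GSE1 on chromosome 16. In T30 it held 32 hubs over 460 kb, with 117 loops and 2570 contacts among them. In T0 it held 13 hubs over 430 kb, with 25 loops and 626 contacts. GSE1 alone overlapped 26 T30 hub bins and 10 T0 hub bins. The second T30 group had 11 hubs over 400 kb of chromosome 3, from beside PARL through ABCC5, an efflux transporter gene, to ECE2, an endothelin-converting enzyme gene. Others held 9 hubs around HES1, 6 around IRF2BP2 and 6 in and beside TRPS1, a zinc finger gene of luminal breast cells on chromosome 8. No T0 group apart from that at GSE1 had more than 4 hubs. Without the GSE1 region 270 hubs were left in T30 and 229 in T0, and 9.63% of T30 hubs and 11.4% of T0 hubs were then shared.

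Hubs were unevenly spread over chromosomes. Chromosome 3 held 57 hubs in T30 and 57 in T0, or 18.9% and 23.6% of all hubs, while it held 10.9% and 10.5% of listed bins. Chromosome 16 held 44 hubs in T30 and 19 in T0 (14.6% and 7.85%, against 5.16% and 4.61% of listed bins). Chromosome 8 held 32 in T30 and 10 in T0 (10.6% and 4.13%, against 6.48% and 5.46%). Chromosome 17 held 30 and 29, and chromosome 12 held 12 and 21. Chromosomes 13 and 18 held none in either library.

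Hub bins lay in genes about as often as other bins in T30 and less often in T0. A protein-coding gene overlapped 184 of the 302 T30 hubs (60.9%, 55.2 to 66.5) and 119 of the 242 T0 hubs (49.2%, 42.7 to 55.7). For bins of 1 to 4 partners the shares were 61.7% in T30 and 60.3% in T0 (59.3 to 61.2). Without the GSE1 region the hub shares were 56.7% in T30 and 46.3% in T0. A gene lay within 10 kb of 69.2% of T30 hubs and 68.6% of T0 hubs, against 74.7% and 74.1% of other bins. A gene start lay in 46 of 270 T30 hubs (17%, 12.8 to 22.1) and 33 of 232 T0 hubs (14.2%, 10 to 19.4), against 11.7% (11.1 to 12.3) and 14.6% (13.8 to 15.3) of other bins. The share with a start was thus higher at T30 hubs than at other T30 bins, and in T0 the shares were close. These intervals cover counting error only and test neither contrast. Alternative starts within a gene counted as well, with chromosome 8 not used here for starts.

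Hub bins overlapped 156 of 19974 protein-coding genes in T30 (0.781%) and 116 in T0 (0.581%), 25 of them in both, which is 16% of the T30 genes and 21.6% of the T0 genes. The 247 genes in either had a median length of 56.6 kb, against 24.2 kb over all genes; a longer gene covers more bins. The gene lists were written with earlier results of these data known, so their counts at hubs are a description only. Of 32 progestin target genes, 4 overlapped a T30 hub (FKBP5, ZBTB16, BCL6 and NFKBIA) and 1 a T0 hub (BCL6). Within 10 kb of a hub, where 1.08% of all genes lay in T30 and 1% in T0, the same 4 genes were found in both libraries. At FKBP5 and NFKBIA the T0 hub was the shifted one described above, while at ZBTB16 it was the separate hub in NNMT. Of 20 coregulator and chromatin genes, 3 overlapped a T30 hub (MED13L, GSE1 and ANKRD11) and 2 a T0 hub (GSE1 and HDAC9).

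The other lists had few members at hubs. Of 22 luminal identity genes, GRHL2, an epithelial transcription factor gene, overlapped a T30 hub (5 partners in T30 and 1 in T0) and none overlapped a T0 hub. Within 10 kb, KRT19, a luminal keratin gene, and EHF, an epithelial factor of the ETS family, joined GRHL2 in T30, and none was found in T0. The hub near KRT19 had 5 partners in T30 and 3 in T0, and a bin 10 kb above it had 2 in T30 and 6 in T0, which lies beyond the 10 kb window of that gene. Near EHF the T30 hub had 9 partners in T30 and 1 in T0, 1713 bp from the gene. Of 22 keratin genes, KRT37 overlapped a T30 hub and none a T0 hub, and within 10 kb there were 4 in T30 (KRT19, KRT23, KRT31 and KRT37) and 1 in T0 (KRT80). The T0 hub near KRT23, 12.7 kb from the gene, fell outside that window. Of 20 growth factor and kinase genes, VAV2 overlapped T30 hubs and none a T0 hub. None of 23 estrogen response genes and none of 16 housekeeping genes overlapped a hub in either library. Of 20 genes of other tissues, 0 overlapped a T30 hub and PECAM1, an endothelial adhesion molecule gene, overlapped a T0 hub (1 partner in T30 and 5 in T0).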

How the data were processed

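PR-HiChIP loop lists of T47D cells were analysed, 1 library labelled T30 and 1 labelled T0. Each deposited list gives, per the file headers, the contact count of every loop between bins of 5 kb, not normalized, and the loop's p-value and q-value from the authors' bias-corrected model. The names of the deposited files give a q-value threshold of 0.05 and the merging of near contacts. The deposited fraction of each cluster of contacts entered only a check of the merging. Bowtie, hg38 and GRCh38 are named in the submitters' processing notes, without versions or settings; whether replicates were pooled, and any further step, is not given in the sources used here.

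Partners are distinct bins joined to a bin by listed loops, and hubs have at least 5; the 4 T30 loops outside assembled chromosomes held no hub. Neighbouring partners of a hub were at least 10 kb apart in both libraries, and 271 of 302 T30 hubs and 197 of 242 T0 hubs touched 5 or more separate clusters of contacts. A hub was shifted when a hub of the other library lay 1 or 2 bins away. Spans are distances between bin starts. Genes and promoters came from RefSeq tables of GRCh38.p14; all genes of the 8 lists were found. With 1 library per group no test was made. Intervals of shares are exact Clopper-Pearson intervals and those of medians come from order statistics, at 95%; both cover counting error only.

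The members and gene lists were chosen with earlier results of these data known. Named are, among hubs, the 10 with most partners and the 10 with the largest difference in each direction, the 5 with the longest reach and the 5 with most contacts per library, the 5 largest linked groups, the first 10 shared hubs and the listed genes at hubs; the text gives a part of these. Genes outside this rule, such as SNRPE, MCCC1, LAMP3 and HOXB3, were picked after their values were seen. Other thresholds, q under 0.01, at least 10 contacts, equal list lengths, a minimum span, merged partners and wider windows were tried. The single-sided share under other settings, clusters as partners, and leaving out chromosome 3 or the GSE1 region were added after the data were seen. The steps were tested on simulated data. Tools were Python 3.11.15 with matplotlib 3.10.9, networkx 3.6.1, numpy 2.4.6, scipy 1.17.1 and pandas 2.3.3.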

Additional observations from a re-analysis of the deposited data

How the results depend on the processing

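The number of hubs followed the threshold. With 4, 6 or 8 partners required there were 522, 179 or 79 hubs in T30 and 470, 120 or 41 in T0, in place of 302 and 242, and at q under 0.01 there were 150 in T30 and 86 in T0. With lists of equal length there were 213 in T30 and 242 in T0, so the order of the libraries turned. Hubs found again in the other library, 12.3% from T30 and 15.3% from T0, came to 20.2% and 22.3% within 2 bins, 24.8% and 24% within 4 bins, and 24.8% and 29.8% with 3 partners required there. The median span of T0 hub loops, 295 kb, was 330 kb at q under 0.01 and 275 kb without chromosome 3; median contacts, 14 in each library, were 16 in each at q under 0.01. The share of hubs in genes, 60.9% in T30 and 49.2% in T0, became 69.2% and 68.6% with genes widened by 10 kb, and 17% and 14.2% for gene starts. Single-sided hubs, 26.5% in T30 and 75.2% in T0, were 60.9% and 83.2% with loops of 100 kb or more. The causes of these shifts were not tested beyond the settings' own construction. Of 66 alternative values, 42 moved by less than their counting interval or, for numbers of hubs, by less than 1.5 times. These include the numbers of hubs at equal list length, although the order of the libraries turned there. No paired analysis was possible because each condition was 1 HiChIP library, and for the same reason no replicate could be left out. The depth of the libraries is unknown, so a bin without a listed partner may hold contacts below the authors' threshold.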

Other observations

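Hubs also lay at other genes outside the gene lists, named here after the values had been seen. In RUNX1, a transcription factor gene on chromosome 21, at an alternative start within the gene, a hub had 5 partners in T30 and 2 in T0, and a second hub 350.7 kb from the gene had 0 in T30 and 5 in T0. TBX2, a T-box repressor gene on chromosome 17, had a hub with 5 in T30 and 0 in T0, all on the lower side from 360 to 675 kb away. KDM4B, a histone demethylase gene, had 5 in T30 and 0 in T0, and all 5 lay within 55 kb.

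Other genes held a hub of T0 alone. At the start of MECOM, a zinc finger gene on chromosome 3, T30 listed 2 partners and T0 listed 5. At the start of PHLDA1 on chromosome 12 there were 3 in T30 and 5 in T0, in DLX3, a homeobox gene, 3 and 5, and in ABL1, a tyrosine kinase gene, 1 and 6. In FGF12, a member of the fibroblast growth factor family, a bin had 3 in T30 and 8 in T0 with 48 and 209 contacts. Near SOX2, a transcription factor gene, a hub of 5 in T30 and 1 in T0 lay 10 kb below a bin with 0 in T30 and 7 in T0.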
